A study of Mus musculus with 8 samples.

Results

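The interferon response genes examined here are 39 named mouse genes, taken from a list of interferon receptors, their transcription factors and the genes that interferons induce, under a rule that names genes and uses no measured value. The list was, however, drawn up with earlier results of these data known. Every one of the 39 was found in the gene annotation, against 21938 protein-coding genes in all, and 38 of the 39 are annotated as protein-coding there, the exception being Mx2, annotated as a polymorphic pseudogene. The list holds 4 receptor chains, 8 transcription factors, 4 sensors or kinases that bind viral RNA, 3 genes of the ISG15 conjugation system, 11 antiviral effectors, 4 interferon-inducible GTPases and 5 other induced genes.

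H3K27ac, the acetylation of lysine 27 on histone H3 that accompanies promoter and enhancer activity, was mapped by chromatin immunoprecipitation and sequencing in 4 breast tumors, 2 control and 2 test. All mice were on a Balb/c background, carried the polyoma middle T oncogene (PyMT) that drives mammary tumors, lacked Rag1 and with it their own T and B cells, and received an injection of CD4+ T cells when 4 weeks old. Control mice had the genotype PyMT;Rag1KO, and test mice had K14-TSLPtg;PyMT;Rag1KO, in which the cytokine thymic stromal lymphopoietin (TSLP) is made from the keratin 14 promoter, an epithelial promoter. In the titles of the samples the word tumor stands for control and the word cyst for test, and the replicate numbers 1 and 2 only name the tumors within a group. The PyMT transgene is driven by the mammary tumor virus promoter, so each tumor is a whole piece of tissue that arose in a mammary gland, with its stroma and blood cells. Of 12 luminal epithelial marker genes, 11 or 12 had H3K27ac at their promoters in every tumor, while of 12 T cell marker genes 3, 2, 3 and 1 had one in control 1, control 2, test 1 and test 2. Gata3, which luminal epithelium also expresses, had a promoter interval in all 4 tumors, and the defining T cell genes Cd4, Cd3e, Cd3d and Cd3g had none in any.

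Interferons are cytokines that cells release on infection or immune activation. Type I interferons bind the receptor pair encoded by Ifnar1 and Ifnar2 and, through JAK kinases, activate STAT2, which joins IRF9 in a complex that binds the interferon-stimulated response element (ISRE) in promoters. Interferon gamma, a product of T and natural killer cells, binds the pair encoded by Ifngr1 and Ifngr2 and acts on promoters through the gamma-activated site (GAS). In tumors the response is seen in cancer cells as well as in macrophages and other infiltrating cells, and a share of the induced genes encode proteins that block viral replication.

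The deposited data give the positions of H3K27ac intervals in each tumor and no height, so 2 measures were taken. A gene had an active promoter in a tumor when an interval lay within 1 kb of its transcription start site (TSS), and its coverage was the share of the 10 kb on each side of the TSS, in percent, that lay in intervals. Control 1 had 69861 intervals over 73.1 Mb, control 2 had 67850 over 67.8 Mb, test 1 had 65763 over 73.0 Mb and test 2 had 59762 over 64.3 Mb. The depth of sequencing is unknown, and more deeply sequenced libraries can yield more and wider intervals, so the members were read beside the same counts over all genes. With 2 tumors against 2, the smallest two-sided p an exact permutation test could give is 0.333, so no test was run and the values are descriptions. Where 4 values follow one another, they are those of control 1, control 2, test 1 and test 2, in that order. In these whole tumors, fewer cells of a type and less acetylation per cell cannot be told apart.

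The promoter sequences of the members were read as a description. Interferons act through the ISRE and GAS, so matches among genes listed for their part in the interferon response are not independent of the list. RefSeq promoter sequences (GRCm38.p6, the C57BL/6J reference and not the Balb/c strain) were at hand for 32 of the 39 members and for 16521 genes in all, and the 250 bases before the RefSeq start were searched on both strands. The ISRE core was written as GAAANNGAAA and the GAS as TTCNNNGAA, where N is any base. An ISRE core was found in 12 of 32 members (37.5%) against 512 of 16521 promoters (3.10%). It was found in 10 of 20 induced members (50%) and in 2 of 12 receptors and transcription factors, namely Stat2 and Irf2. A GAS was found in 9 of 32 members (28.1%) against 6.63% of all promoters. A match is a string of letters and not a measured binding site. Dhx58, Usp18, Mx1, Mx2, Oas2, Parp9 and Parp14 had no entry in the table.

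The induced members also differed from the receptors and factors in base composition. The ratio of observed to expected CpG was above 0.6 in 10 of 12 promoters of receptors and transcription factors, in 2 of 20 of induced members and in 46.9% of all promoters. The promoters that follow show these motifs beside the results described after them, in lower case from 250 bases before the RefSeq start to the base before it, 5′ to 3′ on the strand of the gene, with ISRE core and GAS matches in capitals (overlapping matches run together). Isg15 (minus strand, chr4:156200819-156201068) is shown for 3 overlapping ISRE cores. Irf8 (plus strand, chr8:120736108-120736357), Isg20 (plus strand, chr7:78913174-78913423) and Eif2ak2 (minus strand, chr17:78882573-78882822) are shown because their coverage separated the groups and they hold a GAS. Ifit3 (plus strand, chr19:34583279-34583528), Oas3 (minus strand, chr5:120777660-120777909) and Rsad2 (minus strand, chr12:26456453-26456702) were added after their values were seen, because acetylation over their ISRE core differed between tumors or was absent.
Isg15: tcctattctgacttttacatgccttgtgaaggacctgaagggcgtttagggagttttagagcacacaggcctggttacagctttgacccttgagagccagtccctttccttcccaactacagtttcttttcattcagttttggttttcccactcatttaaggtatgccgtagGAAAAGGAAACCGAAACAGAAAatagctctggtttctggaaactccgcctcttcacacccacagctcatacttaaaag
Irf8: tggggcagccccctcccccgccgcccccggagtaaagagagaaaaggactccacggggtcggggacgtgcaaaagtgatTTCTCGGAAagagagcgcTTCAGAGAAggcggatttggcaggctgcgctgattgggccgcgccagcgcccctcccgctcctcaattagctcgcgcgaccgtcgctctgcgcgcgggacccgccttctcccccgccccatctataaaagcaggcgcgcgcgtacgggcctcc
Isg20: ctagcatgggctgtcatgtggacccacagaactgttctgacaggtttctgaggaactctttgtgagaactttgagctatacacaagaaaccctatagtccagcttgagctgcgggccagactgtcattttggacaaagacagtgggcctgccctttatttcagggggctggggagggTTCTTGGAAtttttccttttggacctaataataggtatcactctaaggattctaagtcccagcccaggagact
Eif2ak2: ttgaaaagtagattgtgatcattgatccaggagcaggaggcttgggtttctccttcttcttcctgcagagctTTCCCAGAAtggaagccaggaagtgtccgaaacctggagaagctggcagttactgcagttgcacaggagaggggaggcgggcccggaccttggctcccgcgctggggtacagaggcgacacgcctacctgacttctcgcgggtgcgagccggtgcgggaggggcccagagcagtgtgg
Ifit3: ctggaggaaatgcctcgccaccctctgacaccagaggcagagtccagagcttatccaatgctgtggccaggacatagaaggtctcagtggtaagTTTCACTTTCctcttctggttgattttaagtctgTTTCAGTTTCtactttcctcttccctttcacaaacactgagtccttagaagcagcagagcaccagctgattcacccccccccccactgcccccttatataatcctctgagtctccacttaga
Oas3: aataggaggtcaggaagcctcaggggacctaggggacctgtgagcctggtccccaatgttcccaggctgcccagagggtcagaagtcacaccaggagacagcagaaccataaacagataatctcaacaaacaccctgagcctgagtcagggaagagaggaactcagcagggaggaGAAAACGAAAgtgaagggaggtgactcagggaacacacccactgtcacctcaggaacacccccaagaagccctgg
Rsad2: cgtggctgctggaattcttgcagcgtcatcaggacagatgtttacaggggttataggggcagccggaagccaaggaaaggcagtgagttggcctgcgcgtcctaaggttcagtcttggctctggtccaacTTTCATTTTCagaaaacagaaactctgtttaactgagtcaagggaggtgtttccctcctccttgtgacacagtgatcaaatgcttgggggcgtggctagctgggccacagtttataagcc

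To ask whether the interferon genes were active in tumors of either group, their promoters were examined first. Control 1, control 2 and test 2 each had H3K27ac at the promoters of all 39 members, and test 1 had it at 36. The mean was 39 ± 0 (SD, n = 2) for control and 37.5 ± 2.12 (SD, n = 2) for test tumors. The 36 members with an interval in all 4 tumors compare with 49.6% of all protein-coding genes. None of the 39 was active in both control tumors and neither test tumor, a pattern found in 0.533% of all genes, and none in both test tumors and neither control tumor, found in 0.301%. The interferon promoters were thus acetylated in tumors with and without the TSLP transgene, and the presence of an interval did not separate the groups for any member.

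The members that lacked a promoter interval in test 1 were Oas2, Oas3 and Irf8, a pattern (every tumor but test 1) seen in 0.187% of all genes. Oas2 (chr5:120730333-120749853, mm10, minus strand) and Oas3 (chr5:120753098-120777661, minus strand) encode oligoadenylate synthetases, enzymes that sense double-stranded RNA and activate RNase L, and their start sites lie 27.8 kb apart. The Oas2 promoter interval was 1075 bp wide in control 1, 1593 bp in control 2 and 2047 bp in test 2, and test 1 had no interval within 10 kb. Oas3 had a promoter interval of 243 bp in control 1, 1117 bp in control 2 and 1886 bp in test 2. At Oas3 the interval spanned the start site in control 2 and test 2, while in control 1 it began 488 bp downstream. Irf8 (chr8:120736358-120756694, plus strand) encodes a transcription factor of macrophages, dendritic cells and B cells, and its promoter interval measured 701 bp in control 1, 841 bp in control 2 and 239 bp in test 2. At Irf8 all of these lay downstream of the start, so in no tumor did an interval cover the 2 GAS matches upstream of it.

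**Figure D1:**
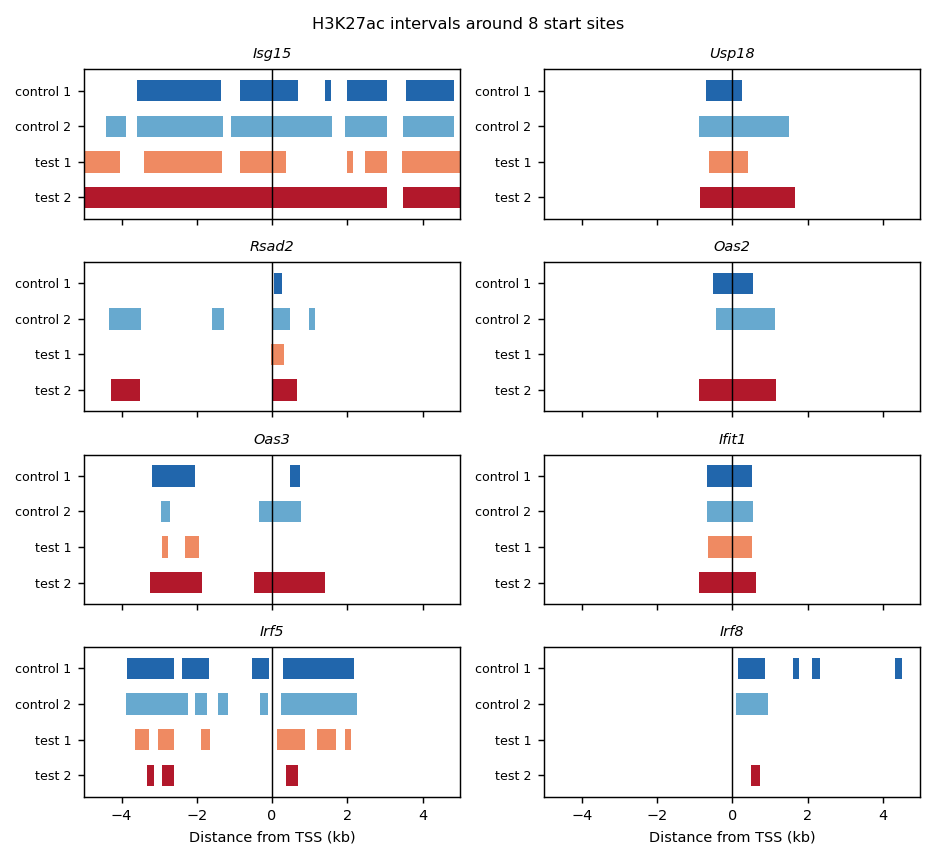
Position of H3K27ac intervals within 5 kb of the TSS of 8 members in each tumor, in kb along the direction of the gene (negative values are upstream), with bars for intervals and a vertical line at the TSS. The Oas2 promoter is bare in test 1, the Usp18 interval reaches 1513 bp downstream in control 2 and 1664 bp in test 2 against 266 bp and 420 bp in the other tumors, and the intervals around Irf5 are fewest in test 2.

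Coverage within 10 kb varied widely among the members, as the plot of coverage by gene shows. Isg15, Ifnar2 and Ifi35 had the highest mean coverage. Isg15, a ubiquitin-like protein that is attached to other proteins in the interferon response, had coverage of 48.1% and 53.7% in control 1 and 2, and 53.3% and 60.7% in test 1 and 2. The Isg15 window also holds the starts of Agrn and AW011738. The lowest value of any member was Oas2 in test 1, at 0%. None of the members' windows overlapped each other, and 29 of the 39 held no other annotated protein-coding start.

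**Figure D2:**
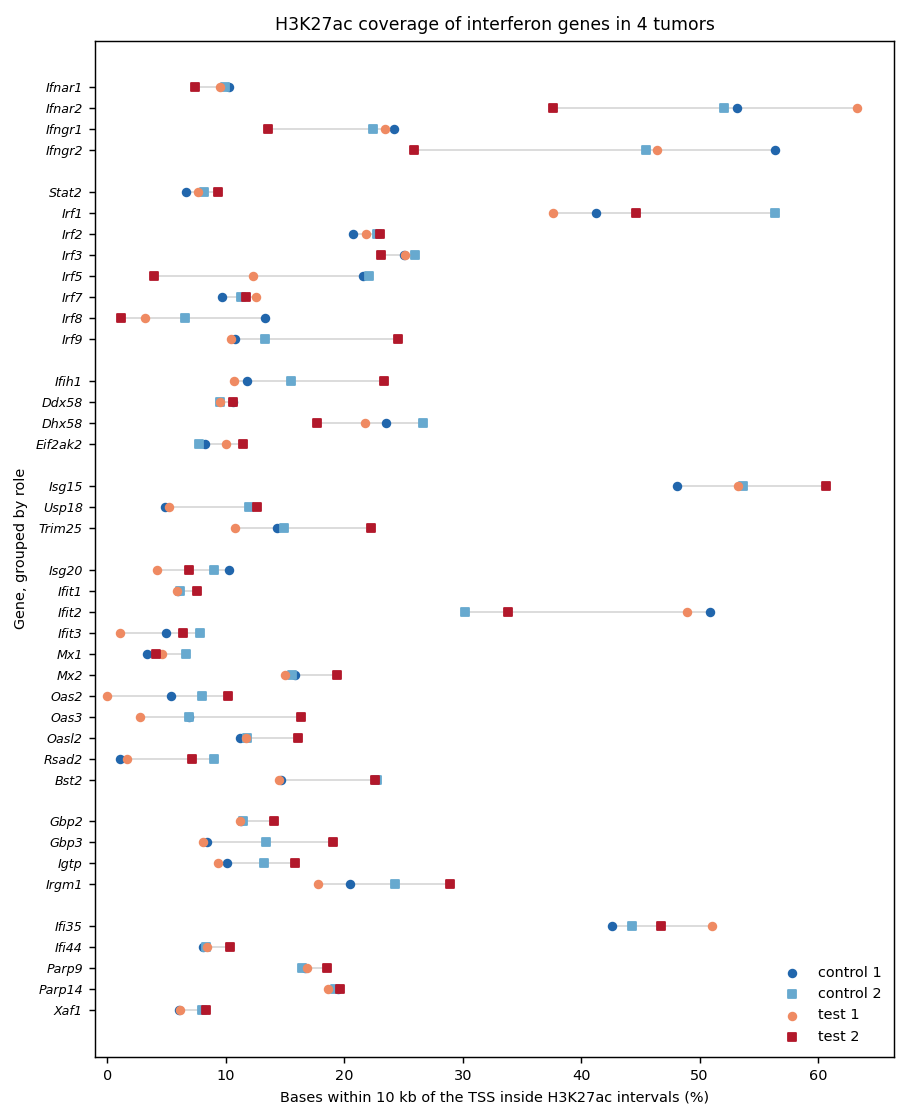
Percent of bases within 10 kb of the TSS inside H3K27ac intervals for each of the 39 members, grouped by role from receptors at the top to other induced genes at the bottom, with 1 point per tumor and a line from the lowest to the highest tumor. Test 2 is the highest point for 21 members and the lowest for 8, including all 4 receptors, against 22% and 35.5% of covered genes.

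The receptor genes, which lie at the head of the pathway, had active promoters in all 4 tumors and less coverage in test 2 than in any other. Of all protein-coding genes, 49.6% had active promoters in all 4 tumors. Test 2 was also the lowest tumor for 35.5% of the genes with coverage in any tumor, more often than any other tumor. Ifnar1 had coverage of 10.3% and 9.91% in control 1 and 2, and 9.54% and 7.44% in test 1 and 2. Ifnar2 had 53.1%, 52.0%, 63.3% and 37.6% in the same order of tumors. Both encode chains of the type I interferon receptor, and only at Ifnar1 were both control tumors above both test tumors, with a difference (test minus control) of -1.60 percentage points ± 1.23 (SD over the 4 ways to pair 1 test and 1 control tumor, as for the later differences). That order held at Ifnar1 under 1 of 5 other ways of measuring coverage (windows of 2.5 or 25 kb, wide intervals only, equal numbers of intervals, near intervals joined). For the interferon gamma receptor, Ifngr1 had 24.2%, 22.4%, 23.5% and 13.6%, and Ifngr2 had 56.4%, 45.4%, 46.4% and 25.9%. At Ifngr2 test 1 lay between the control tumors, and the difference of -14.8 points was close to its SD of 13.4. Over the 4 receptors the mean coverage was 36.0%, 32.5%, 35.7% and 21.1%, so the lower mean of the test group came from test 2.

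Among the transcription factors, Irf5 and Irf8 had the largest differences between the groups. Irf5 (chr6:29526625-29541871, plus strand), which acts downstream of Toll-like receptors in macrophages and B cells, had coverage of 21.6% and 22.1% in control 1 and 2, and 12.3% and 3.94% in test 1 and 2, a difference of -13.8 points ± 4.82. Upstream of the Irf5 start, an interval ran from -533 to -87 bp in control 1 and from -322 to -120 bp in control 2 (negative distances are upstream), and the test tumors had none there. Irf8 had 13.3%, 6.53%, 3.15% and 1.19%, a difference of -7.76 points ± 4.09. At both genes the control tumors were above the test tumors, and the order held for Irf5 under each of the same 5 alternatives and for Irf8 under 4 of them. No interval of at least 1 kb lay within 10 kb of Irf8 in any tumor, so the alternative restricted to such intervals gave no value for it.

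Myeloid marker genes, like Irf5 and Irf8, mostly had less coverage in the test tumors. Over the 20 genes of the myeloid list, mean coverage was 20.2% and 16.3% in control 1 and 2, and 14.6% and 8.76% in test 1 and 2, with promoter intervals at 16, 14, 13 and 10 genes. Both control tumors were above both test tumors at 11 of the 20, against 11.6% of covered genes, and the reverse at 0, against 20.9%, while Adgre1 and Cx3cr1 had no coverage in any tumor. Spi1, the master regulator of the myeloid lineage, was named after its values were seen and had 32.8%, 27.6%, 23.8% and 6.45%. The mean of the test group was the lower one at 17 of the 20 and the higher one at 1. The latter was Cd14, with 48.9%, 32.6%, 54.8% and 41.7%. Mean coverage of the endothelial list was 4.19%, 2.35%, 1.48% and 0.715%, that of the fibroblast list 5.25%, 3.24%, 3.14% and 0.909%, and that of the T cell list 5.12%, 5.16%, 4.95% and 3.52%. Most of the T cell mean came from Gata3, and without it the means were 1.03%, 1.05%, 0.793% and 0.172%. Promoter intervals were found at 5, 4, 3 and 0 of 10 endothelial genes and at 4, 3, 3 and 0 of 10 fibroblast genes, and Tie1, Erg, Vwf, Lum, Fap, Thy1, Icos and Ctla4 had no coverage in any tumor. The luminal epithelial list had 45.7%, 44.1%, 46.4% and 43.5%. The part of these cell types in the values at Irf5 and Irf8 was not tested.

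The other factors showed no such order, apart from Irf7. Stat2, a signal transducer of the type I response, had 6.64%, 8.18%, 7.67% and 9.37%, with the highest value in test 2 and the groups overlapping. Irf9, which brings STAT2 to the ISRE, had 10.8%, 13.3%, 10.4% and 24.5%, where test 2 stood apart from the other 3 tumors. Irf1, an early target of interferon gamma, had 41.3%, 56.4%, 37.6% and 44.6%. Irf7, the factor that amplifies type I interferon production, had 9.67%, 11.3%, 12.6% and 11.7%, a difference of 1.66 points ± 1.06, with this order in 3 of the 5 alternatives. Irf7 also had an interval upstream of its start, from -2536 to -2115 bp in test 1 and from -2503 to -2111 bp in test 2. Neither control tumor had one there, although an interval of control 2 lay just beyond it, from -2718 to -2561 bp. Outside the rule for naming genes, Irf2 ranged from 20.8% to 23.0% and Irf3 from 23.1% to 26.0%, with the groups overlapping at both. The windows of Stat2, Irf1 and Irf3 also hold the starts of Apof, Gm17334 and Bcl2l12, respectively.

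Among the 27 induced members, 6 separated the groups, 2 with control higher (against 11.6% of covered genes) and 4 with test higher (against 20.9%), neither above the background share. Dhx58, a regulator of the RNA sensors RIG-I and MDA5, had 23.5% and 26.7% in control 1 and 2, and 21.7% and 17.7% in test 1 and 2, a difference of -5.37 points ± 2.95. The Dhx58 window also holds the starts of Hspb9 and Kat2a. The groups separated in covered length upstream of the Dhx58 start, with 3110 bp and 3082 bp in control 1 and 2 against 2382 bp and 1982 bp in test 1 and 2. In every tumor that length lay in the promoter interval and in intervals over 7 kb away. Downstream they overlapped, at 1594 bp, 2253 bp, 1965 bp and 1563 bp. Isg20, an RNA exonuclease, had 10.3%, 9.02%, 4.21% and 6.88%, a difference of -4.09 points ± 1.70. Isg20 was higher in control tumors in each of the 5 alternatives, whereas Dhx58 was so in 2 of the 5.

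Eif2ak2, which encodes the kinase PKR that halts translation on binding double-stranded RNA, was the most stable of the genes with test higher. It had 8.23%, 7.78%, 10.0% and 11.5%, a difference of 2.74 points ± 0.864, and kept that order in each of the 5 alternatives. Ifi35 had 42.6%, 44.3%, 51.1% and 46.7%, a difference of 5.42 points ± 2.69, in a window that also holds the start of Rpl27. Ifi44 had 8.06%, 8.29%, 8.44% and 10.4%, and Parp9, an ADP-ribosyltransferase family member, had 16.7%, 16.5%, 16.9% and 18.5% in a window shared with the start of Dtx3l. At both of these the gap between the groups was smaller than the gap between the test tumors. Under the 5 alternatives the order held in 4 at Ifi35, Ifi44 and Parp9.

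Counted over the list, both control tumors exceeded both test tumors at 5 of 39 members (Ifnar1, Irf5, Irf8, Dhx58 and Isg20), against 11.6% of the 14792 protein-coding genes with coverage in any tumor. Both test tumors exceeded both control tumors at 5 of 39 (Irf7, Eif2ak2, Ifi35, Ifi44 and Parp9), against 20.9%. The median difference over the 39 members was 0.647 points ± 1.47 (SD over the 4 pairings, whose own medians ranged from -0.910 to 2.32), and 0.277 points over all covered genes. The sign of the median changed when control 1 or test 2 was left out, at -0.355 and -0.735. The difference between the groups was therefore smaller than the spread between tumors.

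The spread within a group was the larger feature of these genes. Control 2 exceeded control 1 at 26 of 39 members, against 52.7% of covered genes, and test 2 exceeded test 1 at 27 of 39, against 31.3%. The median absolute difference between the test tumors was 4.46 points over the members and 1.86 over all covered genes, and between the control tumors it was 1.81 and 1.43. Among the 27 induced members, control 2 exceeded control 1 at 19 and test 2 exceeded test 1 at 23. Among the 12 receptors and factors these counts were 7 and 4. The induced genes thus had more coverage in test 2 than in test 1 although test 2 had fewer intervals and less covered length in all.

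The tumor with the highest coverage was test 2 for 21 of 39 members, against 22% of covered genes, and test 1 for 3, against 39%. Control 1 was highest for 7 (17.1% of covered genes) and control 2 for 8 (21.6%). The lowest tumor was test 1 for 16 members, against 8.82% of covered genes, and test 2 for 8, against 35.5%. Control 1 was lowest for 11 (26.9%) and control 2 for 4 (20.4%). Of the induced members, test 2 was the highest tumor for 18 of 27 and the lowest for 1, whereas 7 of the 12 receptors and factors were lowest in test 2.

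**Figure D3:**
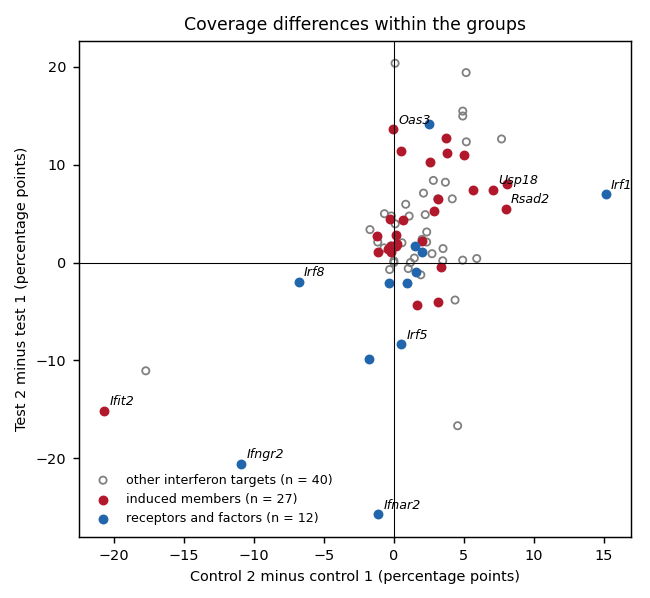
Difference in coverage between the control tumors (control 2 minus control 1, x axis, percentage points) and between the test tumors (test 2 minus test 1, y axis) for the 27 induced members, the 12 receptors and factors and 40 other interferon targets, 1 point per gene. Test 2 exceeds test 1 at 23 of 27 induced members, while Ifngr2 and Ifnar2 lie far below 0 on the y axis.

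Some antiviral genes had similar gaps in both groups. Those of Usp18, Rsad2, Bst2, Gbp3, Ifit1, Ifit2, Ifit3 and Ddx58 fall outside the rule for naming genes and were picked after their values were seen. Usp18 (chr6:121245906-121270917, plus strand), the protease that removes ISG15 and restrains the type I receptor, had coverage of 4.88% and 11.9% in control 1 and 2, and 5.17% and 12.6% in test 1 and 2. Rsad2 (viperin, chr12:26442746-26456452, minus strand), an enzyme that makes a chain-terminating nucleotide, had 1.04%, 9.03%, 1.68% and 7.17%. Bst2 (tetherin), which holds budding virus at the cell surface, had 14.7%, 22.7%, 14.5% and 22.6%, in a window shared with the start of Mvb12a. At Usp18, Rsad2 and Bst2 each group held a high and a low tumor, and the high and low values of one group were close to those of the other.

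The Oas genes and the GTPases followed the same order in the test group. Oas2 had coverage of 5.37%, 7.96%, 0% and 10.2%, and Oas3 had 6.92%, 6.89%, 2.74% and 16.4%. Gbp3, a guanylate-binding protein that acts on intracellular pathogens, had 8.38%, 13.4%, 8.09% and 19.0%. All 4 GTPases (Gbp2, Gbp3, Igtp and Irgm1) and all 3 genes of the ISG15 system (Isg15, Usp18 and Trim25) had more coverage in control 2 than in control 1 and in test 2 than in test 1. These orders were found in 52.7% and 31.3% of covered genes, and the genes are part of the counts over all members given above. Mean coverage of the GTPases was 12.6%, 15.6%, 11.6% and 19.5%, and that of the ISG15 system was 22.4%, 26.8%, 23.1% and 31.8%.

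The antiviral effectors were not uniform. Test 2 exceeded test 1 at 9 of 11, against 31.3% of covered genes, the exceptions being Ifit2 and Mx1. Ifit2, which binds viral RNA, had 50.9%, 30.2%, 49.0% and 33.8%, the opposite order to Usp18, whereas its neighbour Ifit3, 32.8 kb away, had 4.95%, 7.79%, 1.11% and 6.38%. Ifit1, 57.3 kb beyond Ifit3, had 5.98%, 6.14%, 5.89% and 7.56%, in a window shared with the start of Ifit1bl2. Ddx58, which encodes the sensor RIG-I, ranged from 9.51% to 10.6%. Members of one cluster and one function thus differed in how far they varied between tumors.

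The covered length summed over the members differed within the groups mostly downstream of the start. In such sums upstream gains and losses cancel, and at single members the gap could lie upstream. The median width of the promoter interval was 1720 bp, 2237 bp, 1894.5 bp (over the 36 members with an interval) and 2334 bp. Summed over the members' windows, the intervals covered 76.9 kb, 87.6 kb, 73.9 kb and 85.1 kb downstream of the starts, and 60.7 kb, 58.1 kb, 56.6 kb and 58.2 kb upstream. At Ifit2, where the gap lay upstream, they covered 6431 bp, 2628 bp, 6375 bp and 3627 bp there. Downstream of the Ifit2 start they covered 3748 bp, 3410 bp, 3419 bp and 3140 bp. At 1 kb downstream of the TSS, an interval was present in 56.4%, 76.9%, 59.0% and 79.5% of the members. Over the 10874 genes with promoter intervals in all 4 tumors the same shares were 49.7%, 52.0%, 55.0% and 50.3%, with test 1 the highest. At 1 kb upstream the members had 23.1%, 33.3%, 25.6% and 33.3%, against 25.9%, 27.1%, 29.7% and 26.6% of the same 10874 genes. The start itself lay inside an interval at 33, 37, 33 and 35 members, which is 84.6%, 94.9%, 84.6% and 89.7%, against 74.5%, 79.2%, 83.0% and 76.4% of those genes.

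The Usp18 interval differed within the groups downstream of its start. Its upstream edge stayed between 614 and 874 bp from the start in all tumors, while its downstream edge lay at 266 bp and 1513 bp in control 1 and 2, and 420 bp and 1664 bp in test 1 and 2. At Isg15, the interval over the promoter was 1553 bp wide and 2697 bp in control 1 and 2, and 1222 bp and 8448 bp in test 1 and 2. In test 2 a single interval at Isg15 ran from 5405 bp upstream to 3042 bp downstream, where the other tumors had several. Within the Isg15 window, intervals covered 3062 bp, 4087 bp, 4128 bp and 5405 bp upstream. Downstream they covered 6552 bp, 6653 bp, 6526 bp and 6725 bp, so at Isg15 the gaps within the groups were larger upstream.

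**Figure D4:**
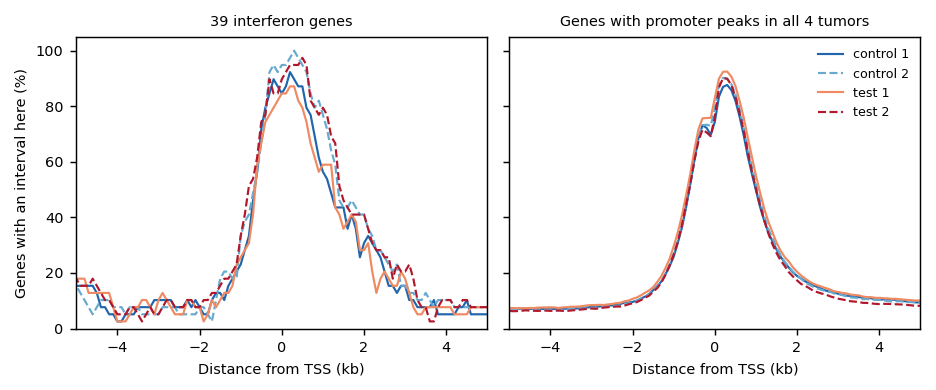
Percent of genes with an H3K27ac interval at each distance from the TSS (kb, negative upstream) in each tumor, for the 39 members (left) and for the 10874 genes with promoter intervals in all 4 tumors (right). At 1 kb downstream of the start, control 2 and test 2 lie above control 1 and test 1 among the members, with 76.9% and 79.5% against 56.4% and 59.0%, and the curves cross farther out, while the curves of the larger set lie close together.

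The ISRE cores in the promoters were mostly inside acetylated intervals. The 12 members with a match held 19 matches, of which 17, 18, 15 and 18 lay inside an interval of the respective tumor. Both ISRE cores of Ifit3, in capitals in its sequence, were inside an interval in every tumor but test 1, where the only interval of the promoter was 222 bp wide with its downstream edge at -383 bp. The ISRE core of Oas3 was inside an interval in control 2 and test 2 and outside in control 1 and test 1. The ISRE core of Rsad2 lay outside in all 4 tumors, since its promoter interval began at most 23 bp upstream of the start. The other 15 matches were inside an interval in every tumor. Of the GAS matches printed, that of Eif2ak2 was inside an interval in all 4 tumors and that of Isg20 in control 2 and test 2, whose intervals began at -312 and -93 bp, but not in control 1 and test 1, where they began at 248 and 275 bp.

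The ISRE cores were also counted by the direction of the difference between tumors of a group, as a description. An ISRE core was present in 12 of the 22 members with sequence that had more coverage in test 2 than in test 1, and in 0 of the other 10. For the control tumors, it was present in 11 of the 22 with more coverage in control 2 and in 1 of the other 10. Among all covered genes with a promoter sequence, the shares were 3.20% of genes higher in test 2 and 2.53% of the others, and 2.95% of genes higher in control 2 and 2.49% of the others. The induced members hold most ISRE cores and most of the genes higher in test 2, so these counts share their source. Within the induced members the counts were 10 of 18 and 0 of 2 for the test tumors, and 9 of 15 and 1 of 5 for the control tumors.

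Around the members, 116 distinct acetylated regions were found within 10 kb of a start when the intervals of all tumors were joined. Of these, 61 (52.6%) were present in all 4 tumors, against 38.1% of the 91238 regions in the genome. Another 4 were present in both control tumors and neither test tumor (3.45% against 3.41% of all regions), at Irf5, Ifngr1, Ifnar1 and Ifit3. The 3 present in both test tumors and neither control tumor (2.59% against 1.47%) were at Irf7, Stat2 and Ifi35. At Stat2 this region began 879 bp downstream of the start and was 372 bp wide. An ISRE core was found within the central 500 bp of 15 of the 116 regions (12.9%) and of 7.87% of all regions.

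Other genes of the pathway were examined from lists that do not hold the members. Like the members, these lists were chosen with earlier results of these data known. Of 42 further interferon targets, 40 were found in the annotation, and their promoters were acetylated at 32, 34, 34 and 35 genes in control 1, control 2, test 1 and test 2, with 32 in all 4 tumors and 5 in none. Of all 21938 protein-coding genes, 49.6% had promoter intervals in all 4 tumors and 9392 genes had them in none. Test 2 exceeded test 1 at 32 of 40, against 31.3% of covered genes, and control 2 exceeded control 1 at 30 of 40, against 52.7%. Test 2 was the highest tumor for 23 of the 40, against 22%, and test 1 the lowest for 21, against 8.82%. Mean coverage was 11.7%, 13.4%, 10.6% and 14.4%. Dtx3l shares its window with Parp9 and Irgm2 with Igtp, and Psmb8, Psmb9 and Tap1 lie next to each other, so these genes are not separate observations. An ISRE core was found in 11 of the 36 with a promoter sequence (30.6%).

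Among these 40 targets both control tumors were higher at 6, against 11.6% of covered genes, and both test tumors at 7, against 20.9%, so both counts lay near the background. The largest difference with control higher was at Uba7, which encodes the enzyme that activates ISG15, with 36.4%, 41.0%, 30.9% and 14.2%. Gbp5 (-4.29 points), Slfn5 (-3.69), Zc3hav1 (-3.60) and Slfn2 (-2.47) followed. The largest with test higher was at Trim21, an antibody receptor and ubiquitin ligase of the cytosol, with 7.55%, 7.63%, 9.83% and 30.2%, a difference that rests on test 2. Ube2l6, the conjugating enzyme for ISG15, was the only one of the 40 with a promoter interval in both test tumors and neither control tumor. That pattern was found in 0.301% of all genes, and the reverse at 0 of the 40, against 0.533%. Ube2l6 had coverage of 0%, 0%, 2.52% and 2.70%. Adar (2.42 points), Ifitm1 (1.95) and Ifi27 (1.43) followed.

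The signalling genes had active promoters throughout. All 10 genes of the receptor and kinase list, among them Jak1, Jak2 and Tyk2, had promoter intervals in all 4 tumors. The share over all protein-coding genes was 49.6%. Both control tumors were higher at 3 of the 10, against 11.6% of covered genes, and both test tumors at 1, against 20.9%. Socs3, an inhibitor of JAK signalling, had 67.6%, 68.1%, 65.4% and 47.2%, Socs1, which restrains the interferon gamma receptor, had 13.4%, 18.5%, 12.1% and 9.77%, and Ifnlr1, the receptor of type III interferon, had 27.1%, 29.0%, 26.4% and 18.4%. At Socs3 and Ifnlr1 test 1 was close to the control tumors and test 2 was low, as at the receptor members. Jak1 had 7.06%, 6.27%, 9.06% and 7.33%. Of 10 regulators found, 8 had promoter intervals in all tumors. Both control tumors were higher at 2 of the 10, against 11.6% of covered genes, and both test tumors at 0, against 20.9%. The 2 were Tmem173 (STING), with a difference of -7.42 points, and Irf2bp2, with -6.63 points.

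The ligand genes lacked promoter intervals, with 1 exception. Of all 21938 protein-coding genes, 9392 lacked them in every tumor. Of 5 interferon genes, Ifng and Ifna4 had no coverage in any tumor, and the exception was Ifne, with a promoter interval in test 1. Ifnb1 had no promoter interval in any tumor, while its 10 kb window had coverage of 14.6% and 9.32% in control 1 and 2, and 15.6% and 15.8% in test 1 and 2. Ifnk, named after its values were seen, had 9.42%, 9.24%, 10.4% and 8.75%, also without a promoter interval. The median over covered genes was 9.35%, 9.68%, 10.1% and 9.05%.

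**Figure D5:**
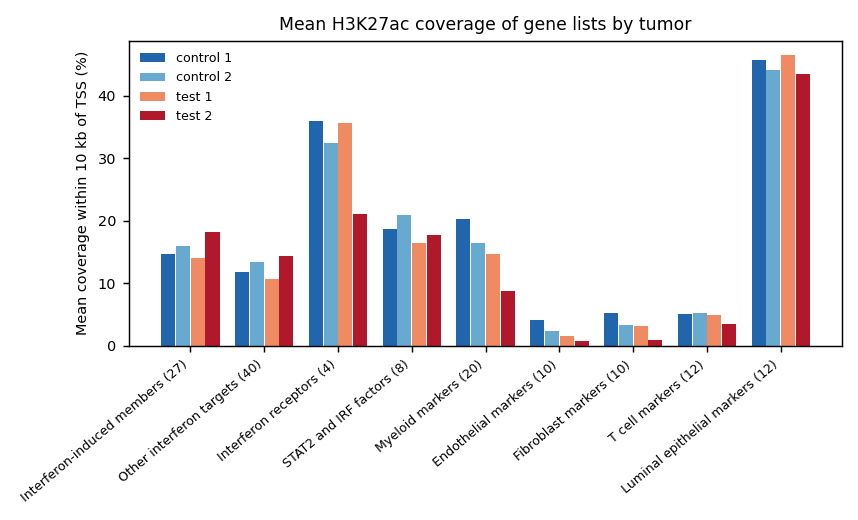
Mean percent of bases within 10 kb of the TSS inside H3K27ac intervals for each gene list (number of genes in parentheses) in each tumor, as bars from 0 with no error bars, since each bar is 1 tumor. The interferon-induced members (18.2% in test 2) and the other interferon targets are highest in test 2, whereas the receptors and the myeloid, endothelial and fibroblast markers are lowest there.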

How the data were processed

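H3K27ac was profiled in 2 control and 2 test tumors, grouped by the genotype in the labels. The 4 matched input samples of the 8 in the series were not analysed here. The authors aligned reads to mm10 (GRCm38) with BWA and called peaks in each tumor against its input with MACS2 at a q-value of 0.01, without pooling. The deposited intervals (start and end in bp, with no other value or score) had been cleaned and merged by steps not given in the sources used here.

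From them, overlap with promoters (1 kb either side of the TSS, the 5′ end of the gene in GENCODE M21, at least 1 bp) and coverage (10 kb either side) were computed in Python 3.11.15 with NumPy 2.4.6, and code was tested on simulated intervals. Backgrounds were all protein-coding genes, or those covered in any tumor. Motifs were read in RefSeq promoters, which matched the reference genome. Differences are test mean minus control mean, with the SD over the 4 pairings. The members and lists were chosen with earlier results of these data known.

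By the rule for naming genes, values per tumor were given for the receptors, Stat2, Irf9, Irf1, Isg15, members whose promoter state differed between tumors, up to 5 members per direction whose groups did not overlap, and the 3 with most coverage. Other pathway genes were named where the groups did not overlap, at most 5 per direction. Promoters were shown for up to 4 members with a motif. Other members and pathway genes named are marked as such, and marker genes were named after their values were seen. Other windows, widths, interval numbers, joining and leaving out each tumor were tried as alternatives.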

Additional observations from a re-analysis of the deposited data

How the results depend on the processing

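Read depth and peak height are unknown, so width and presence are the only measures, and with 2 tumors per group an exact permutation test could not pass 0.05. Under the other settings, 66 values stayed within the replicate spread or, for counts of separating members, within 1.5 times, 7 did not and 2 reversed. With intervals of at least 1 kb only, members with an active promoter averaged 34.5 in control and 32.5 in test tumors, 1 was active in control tumors only, and 3 members were higher in both control and 3 in both test tumors. With a 2.5 kb window 3 were higher in both control tumors. Without test 2, 3 promoters (Irf8, Oas2 and Oas3) were active in control tumors only, and without any other tumor 0. The median difference over members reversed without control 1 (-0.355 points) and without test 2 (-0.735 points), and ranged up to 1.96 points when a tumor was left out. It was 0.0900 points with a 2.5 kb window, 0.0720 with 25 kb, 0.0600 with intervals of at least 1 kb and 0.310 with intervals joined. Over members with no other start within 10 kb, an alternative chosen after seeing the data, it was 0.480 points. Among these 29, control 2 exceeded control 1 at 17, against 52.7% of covered genes, so this count lay near the background. Test 2 exceeded test 1 at 20 of the 29, against 31.3%. Over the other windows, widths, numbers and joining, control 2 exceeded control 1 at 27 to 29 members and test 2 exceeded test 1 at 23 to 30. The causes were not tested. No paired analysis was possible because the replicate numbers only name tumors and the labels pair no control with a test tumor.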
